A study of Homo sapiens with 18 samples.

Results

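A30 and B21 are a pair of HEK cell lines labelled ATXN1L-KO, and their arrays were set directly against each other: 3 arrays of A30 against 3 of B21, 6 of the 18 arrays in the series. HEK is an established human embryonic kidney line. Both lines were made with CRISPR, selected in puromycin and isolated as single colonies, so each is 1 clone and its 3 arrays are 3 cultures of that clone. The other lines were A10, a further clone labelled ATXN1L-KO, and 3 lines with wild-type ATXN1L, namely N4 and N8, which are CRISPR controls, and the parental HEK cells, with 3 arrays each. All lines were grown in the same serum-containing medium. Values are log2 intensities of Affymetrix probe sets, 1 probe set per gene, so a difference of 1 is a 2-fold change. Array medians ran from 5.09 to 5.18. Genes on chromosome 4 from 75 to 146 Mb and on chromosome 13 from 35 Mb to its end (hg38) were kept apart from the rest. Of 9686 genes tested, 125 lay in the chromosome 4 region, 130 in the chromosome 13 region and 9431 in neither.

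ATXN1L and its paralogue ATXN1 are chromatin-associated proteins that bind CIC, a transcriptional repressor, and stabilise it. CIC holds down genes that growth factor signalling through MAPK would otherwise switch on, among them the PEA3 group of ETS factors and feedback inhibitors of the SPRY and DUSP families. A direct comparison of clones with the same intended genotype asks what differs between them apart from the edited gene.

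The edited gene itself gave no difference between the clones. ATXN1L was at 7.43, 7.31 and 7.42 in A30 arrays, against 7.43, 7.41 and 7.61 in B21 arrays, and the wild-type lines averaged 7.16. The groups overlapped, and the difference of −0.10 ± 0.08 (SE) did not pass (limma adjusted p = 0.525). The signal in both lines labelled ATXN1L-KO was thus not below that of the wild-type lines, and the place of the probes relative to the edit was not analysed here. ATXN1 was lower in all A30 arrays (6.99, 6.95 and 7.02) than in all B21 arrays (7.19, 7.22 and 7.12), with a difference of −0.19 ± 0.14 (limma adjusted p = 0.455). Arrays lay apart in this direction at 16.4% of all genes tested. CIC was at 6.90, 6.81 and 6.96 in A30 arrays, against 6.91, 6.78 and 6.76 in B21 arrays (limma adjusted p = 0.624).

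The clones nevertheless differed at many genes. With all 18 arrays in 1 limma fit and Benjamini-Hochberg adjustment over all genes, 949 genes passed an adjusted p of 0.05 (9.8% of those tested), and these are the genes called below. A30 was higher at 257 of them (2.65%) and lower at 692 (7.14%). When each array was centred on its own median the split was 148 higher and 756 lower. Outside both regions 820 genes were called (8.69%), 227 higher (2.41%) and 593 lower (6.29%) in A30. Median centring gave 123 higher and 652 lower there. The lowest A30 array lay above the highest B21 array, or the reverse, at 2675 genes (27.6%). Leaving out all of chromosome 4 as well as the chromosome 13 region, 692 of 9211 genes were called (7.51%), 226 higher (2.45%) and 466 lower (5.06%), and 25.5% did not overlap. The replicate numbers were taken to pair the arrays of these lines in an alternative fit, although the labels name no shared batch. The counts above come from the fit without this pairing. With the number as a block 1443 genes were called (14.9%), 483 higher (4.99%) and 960 lower (9.91%) in A30. Of the 1443, 1292 lay outside both regions (13.7%). The count depended on single arrays: it was 612 without A30 replicate 1, 584 without B21 replicate 2 and 569 without B21 replicate 3, and outside both regions it was 503, 474 and 467 without those arrays and 525 without A30 replicate 2. Each test covers the spread between cultures of 2 clones, and 1 clone against 1 says nothing of how edited clones vary in general. In bulk RNA, fewer cells of a type and less RNA per cell cannot be told apart.

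Markers of the labelled origin and of other cell types were compared between the clones. Of 9 tested markers of embryonic kidney cells, none was called, beside 9.8% over all genes, and 3 lay above 0 and 6 below. SALL1, a kidney progenitor factor, was at 6.56, 6.51 and 6.74 in A30 arrays, against 6.17, 6.48 and 6.42 in B21 arrays (limma adjusted p = 0.0974). At an unadjusted p under 0.05 there were 2 of these markers, SALL1 (0.25) and VIM (−0.15). With the replicate block 2 passed, EYA1 (0.38) and KRT18 (−0.31). The summed log2 value of all 9 ran from 65.14 to 65.32 in A30 and from 64.58 to 65.54 in B21 arrays. Of leukocyte and of fibroblast and keratinocyte markers, most were below the filter, including LYZ, CD14, DCN, KRT5 and KRT14. CD68, a macrophage marker that other cells also express, was tested, at 7.27, 7.24 and 7.59 in A30 arrays, against 7.27, 7.64 and 7.53 in B21 arrays (limma adjusted p = 0.609). THY1 (limma adjusted p = 0.56) and KRT10 (0.879) were tested and not called, and LUM, also tested, is described below.

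The shift on chromosome 4 was the broadest difference between the clones. In the region of the rule 97 of 125 genes were lower in A30 and 0 were higher at the threshold. Over all genes 7.14% were lower and 2.65% higher. The region was chosen on earlier results of the same arrays, so its median is a description. That median was −0.47 (quartiles −0.59 and −0.35), a ratio of 0.72 on the linear scale, and 123 of the 125 genes lay below 0. Set against the wild-type mean, the region's median was −0.53, −0.62 and −0.43 in the A30 arrays, against −0.09, −0.09 and −0.01 in the B21 arrays. All 3 A30 arrays lay below all 3 B21 arrays. A10, the further clone, was at −0.02. Between single cultures of a line the region's median varied by an SD of 0.07.

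The limits of the region did not mark the ends of the shift. Before it, 79 of 157 genes were lower in A30 and 0 higher, with a median of −0.32. After it, 48 of 63 were lower and 1 was higher, with a median of −0.45. The background over all genes was 7.14% lower and 2.65% higher (9.8% called). Just before the lower limit, CXCL2 was at 0.26, MTHFD2L at −0.38 and PARM1 at −0.29 (A30 minus B21). Just inside it, THAP6 was at −0.42, CDKL2 at −0.60 and G3BP2 at −0.76. Just inside the upper limit, SMAD1 was at −0.27, MMAA at −0.60 and ZNF827 at −0.60, and just beyond it TMEM184C was at −0.43, PRMT9 at −0.56 and ARHGAP10 at −0.57. Along the whole chromosome 224 of 345 genes were lower in A30 and 1 was higher (65.2% called), with a median of −0.40 and 326 genes below 0. The single gene called higher was SFRP2, a secreted Wnt modulator, at 4.75, 4.97 and 4.82 in A30 arrays, against 4.51, 4.63 and 4.44 in B21 arrays (difference 0.32 ± 0.09, limma adjusted p = 0.0365). Its call was lost when any 1 of 4 arrays was left out (highest adjusted p = 0.149).

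**Figure D1:**
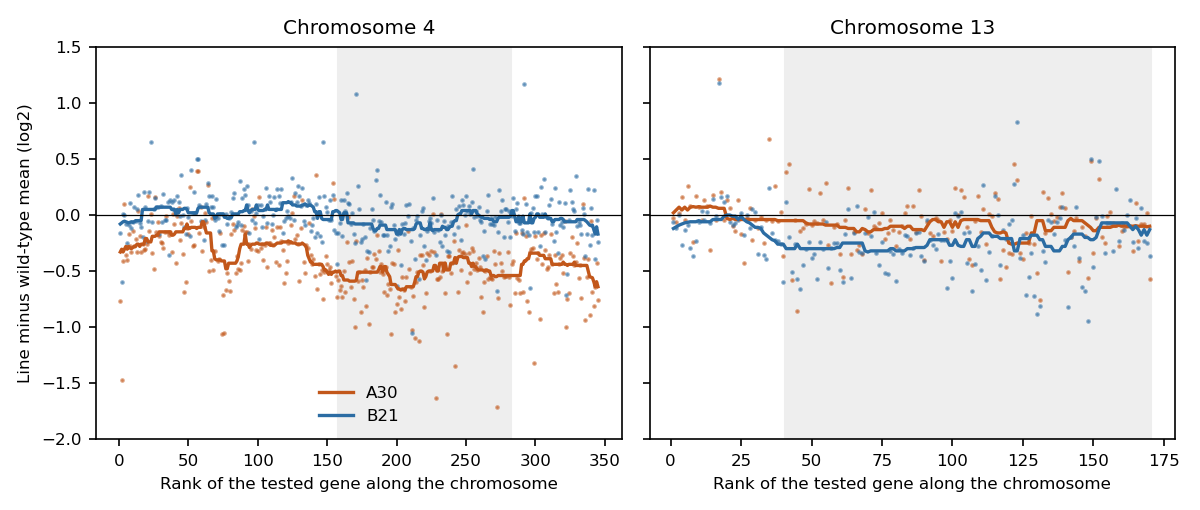
Genes of chromosome 4 (left) and chromosome 13 (right) in their order along the chromosome; each point is 1 gene's line mean minus the wild-type mean (log2), A30 in orange and B21 in blue, the lines are running medians of 21 genes and the grey band is the region of the rule. The A30 median lies below the B21 median along all of chromosome 4, while on chromosome 13 the B21 median lies lower over most of the region.

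The shift was present at every level of signal. With chromosome 4 genes cut into 3 equal parts by mean signal, the medians were −0.33 for the 115 dimmest, −0.45 for the 115 in the middle and −0.40 for the 115 brightest, and 49.6%, 71.3% and 74.8% of them were called. Over all genes tested 9.8% were called. Without the filter on dim genes the median over the 213 genes of the region was −0.30.

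Individual genes stood well beyond the common shift. ANXA3, an annexin that binds membranes in a calcium-dependent way, was at 7.45, 7.43 and 7.59 in A30 arrays, against 8.69, 8.80 and 8.91 in B21 arrays (−1.31 ± 0.16, limma adjusted p = 8.11e-05). The lowest B21 array was above the highest A30 array by more than 1 log2 unit, and the wild-type mean of 7.72 was near A30. ENPEP, the membrane aminopeptidase that cleaves angiotensin II, was at 4.87, 5.21 and 5.04 in A30 arrays, against 6.48, 6.15 and 6.32 in B21 arrays, with 6.67 in the wild-type lines. HERC6, a HECT-domain ubiquitin ligase, averaged 6.14 ± 0.33 in A30 and 7.27 ± 0.02 in B21 (SD, n = 3 arrays each). CLGN, a chaperone of the endoplasmic reticulum best known from the testis, was at 5.82, 5.62 and 5.84 in A30 arrays, against 6.87, 6.76 and 6.72 in B21 arrays. These 4 and the others with the largest differences in the region, SEPTIN7P14 (−0.93), the kinase gene BMP2K (−0.85), the stress granule gene G3BP2 (−0.76) and FRAS1 (−0.75), which encodes a basement membrane protein, were called with any 1 array left out. Outside the region but on the same chromosome, AMBN, which encodes an enamel matrix protein, differed by −1.40 ± 0.16, the protease gene CTSO by −1.16 ± 0.15 and PDLIM3, a gene for an actin-associated PDZ and LIM protein, by −1.02 ± 0.10.

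Taking each gene relative to a window of 41 genes around it along the chromosome removed most chromosome 4 calls. In each line, the mean over its arrays minus the mean over all lines was taken per gene. The running median of this over the window was subtracted from all arrays of the line, which leaves the spread between cultures unchanged. The region's median difference became −0.03. The number of genes called in the region was then 6, and 27 on the whole chromosome. Called in that fit as well were ANXA3 (−0.86, limma adjusted p = 0.00647), ENPEP (−0.90, 0.000414), HERC6 (−0.67, 0.00672), CLGN (−0.54, 0.00304), AMBN (−0.95, 0.00315) and PDLIM3 (−0.58, 0.00277). CTSO (−0.73, limma adjusted p = 0.0135) and BMP2K (−0.38, limma adjusted p = 0.0193) were too. SEPTIN7P14, G3BP2 and FRAS1 were not, with limma adjusted p of 0.101, 0.056 and 0.116. Over the genome the centred fit called 350 genes (3.61%), 113 higher (1.17%) and 237 lower (2.45%) in A30, and 305 of them were among the 949.

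**Figure D2:**
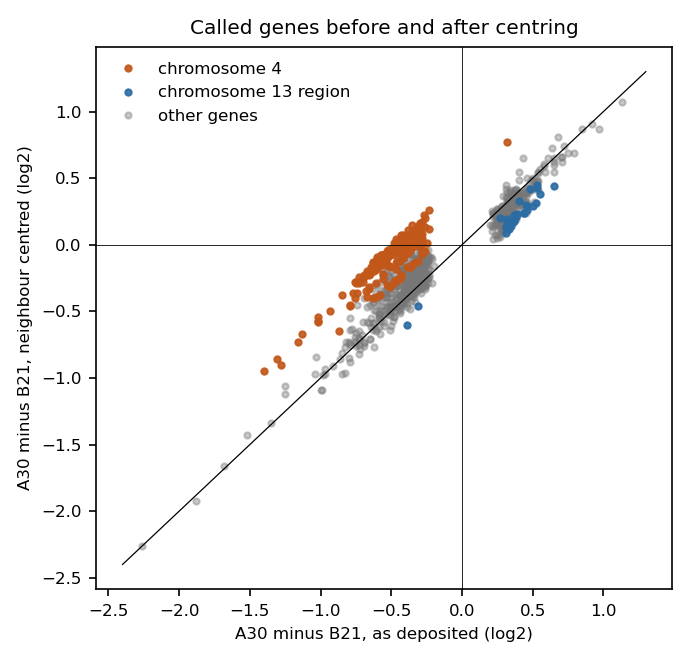
Each point is 1 of the 949 genes called, with its difference between A30 and B21 (log2). The x axis shows it as deposited and the y axis after centring over a window of 41 genes. Chromosome 4 genes are orange, chromosome 13 region genes blue and all others grey, and the diagonal marks equal values. Chromosome 4 genes lie above the diagonal and many sit near 0 on the y axis, while the largest falls elsewhere lie on or near it. LOC100507412 lies on it because a gene without a position was not centred.

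On chromosome 13 the order of the clones was the opposite one, and the shift was smaller. In its region 30 of 130 genes were higher in A30 and 2 were lower, beside a background of 2.65% higher over all genes. The median was 0.15 (quartiles 0.00 and 0.31), a ratio of 1.11, and again a description only. Against the wild-type mean, the region's median was −0.10, −0.16 and −0.05 in the A30 arrays, against −0.27, −0.27 and −0.22 in the B21 arrays. Both clones were therefore below the wild-type mean, B21 further than A30, and the arrays of the clones did not overlap. Around that mean the wild-type lines were at 0.11 (parental), 0.00 (N4) and −0.11 (N8), so A30 was at the level of N8. The SD between cultures was 0.05. A10 was at 0.09.

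The size of the shift varied along the region. Its first 65 genes had a median of 0.22 with 18 higher and 1 lower in A30, and its last 65 a median of 0.08 with 12 higher and 1 lower. The 40 genes before it had a median of 0.09 with 2 higher. Over all genes 2.65% were higher and 7.14% lower. At the limit, N4BP2L2 (0.17), N4BP2L2-IT2 (0.29) and NBEA (0.23) lay just outside and MAB21L1 (0.26), DCLK1 (0.65) and CCDC169-SOHLH2 (−0.07) just inside. The 44 dimmest genes had a median of 0.09, the 42 in the middle 0.18 and the 44 brightest 0.22. Without the filter on dim genes the median over 240 genes was 0.09.

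**Figure D3:**
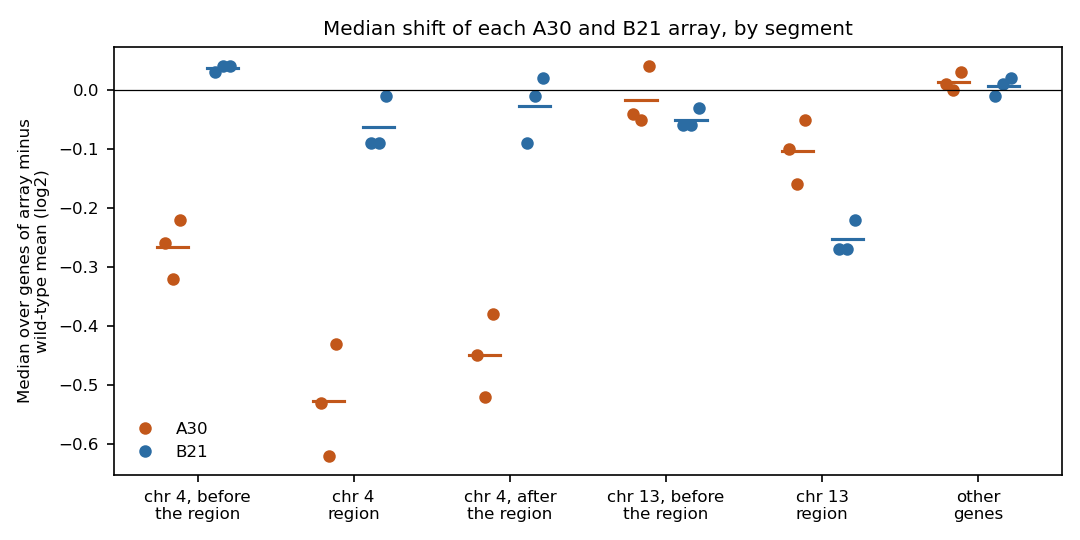
Median over genes of each array minus the wild-type mean (log2, y axis) for chromosome 4 before, in and after its region, chromosome 13 before and in its region, and the genes outside chromosome 4 and the chromosome 13 region; A30 arrays are orange, B21 arrays blue, and bars are means of 3 arrays. All A30 arrays lie below all B21 arrays in the 3 chromosome 4 segments and above them in the chromosome 13 region, and the other genes sit near 0.

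DCLK1, a microtubule-associated kinase gene, was at 6.50, 6.40 and 6.65 in A30 arrays, against 5.95, 5.92 and 5.72 in B21 arrays (0.65 ± 0.14, limma adjusted p = 0.00701). GPC6, a cell-surface heparan sulphate proteoglycan, was at 7.81, 7.57 and 7.86 in A30 arrays, against 7.11, 7.26 and 7.22 in B21 arrays. For both genes every A30 array exceeded every B21 array, as held for 11.3% of all genes tested. MBNL2, a regulator of splicing, differed by 0.53 ± 0.09, the peptidase gene TPP2 by 0.53 ± 0.08, RFXAP, a subunit of the factor that drives MHC class II genes, by 0.52 ± 0.10, and UFM1, a ubiquitin-like modifier, by 0.46 ± 0.10. NHLRC3 (0.50) and TEX30 (0.48) were also called, but NHLRC3 lost its call when any 1 of 3 arrays was left out (highest adjusted p = 0.133) and TEX30 without any 1 of 4 (highest adjusted p = 0.198). RB1, the retinoblastoma tumour suppressor that restrains entry into S phase, was at 8.96, 8.92 and 9.02 in A30 arrays, against 8.72, 8.64 and 8.62 in B21 arrays (0.31 ± 0.07, limma adjusted p = 0.00721). Both clones were below the wild-type mean of 9.25 for RB1, and relative to its neighbours RB1 differed by 0.13 (limma adjusted p = 0.319). The genes called against the region's direction were EPSTI1 (−0.39 ± 0.09) and NDFIP2 (−0.31 ± 0.09), which encodes an adaptor of NEDD4-family ubiquitin ligases. Each lost its call when some single array was left out, 2 of the 6 for EPSTI1 (highest adjusted p = 0.0763) and 5 for NDFIP2 (highest adjusted p = 0.133). Relative to neighbours both were called, at −0.60 and −0.46. After neighbour centring 12 genes of the region were called, among them GPC6 (0.38, limma adjusted p = 0.0192), MBNL2 (0.45, 0.0116) and TPP2 (0.43, 0.00721).

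Other chromosomes held shorter stretches of genes that differed together. Chromosome medians other than those of 4 and 13 ran from −0.13 on chromosome 2 to 0.12 on chromosome 5. On chromosome 2, 102 of 619 genes tested were lower in A30 (16.5%) and 3 higher, beside 7.14% lower and 2.65% higher over all genes. On chromosome 14, 62 of 295 were lower (21%) and 1 higher, and on chromosome 5, 45 of 427 were higher (10.5%) and 11 lower. Stretches of at least 20 genes whose running median over 41 genes passed 0.15 in either direction were listed after the values were seen. The strongest, on chromosome 14 from RIOX1 to MEG9, held 92 genes with a median of −0.30, of which 44 were lower and 0 higher in A30. Chromosome 2 from TMEM18 to TIA1 held 175 genes with a median of −0.22, of which 46 were lower and 1 higher. Chromosome 9 from C9orf78 to CEL held 24 genes with a median of −0.27, and chromosome 15 from HERC2P3 to GPR176 held 41 with a median of −0.21. In the direction of chromosome 13, chromosome 5 from PHAX to CXXC5 held 49 genes with a median of 0.19, of which 12 were higher and 0 lower. Of the 820 calls outside both regions, 128 were on chromosome 4, 169 lay in such stretches on other chromosomes and 523 lay in none, 202 of those higher and 321 lower in A30.

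**Figure D4:**
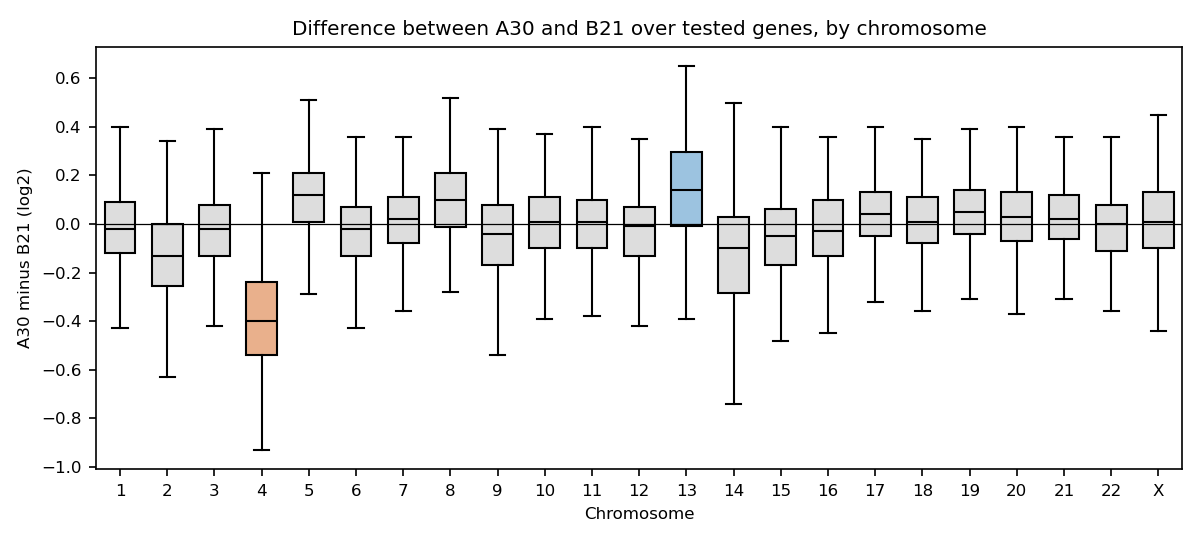
Box plots of the difference between A30 and B21 (log2, y axis) over the tested genes of each chromosome (x axis); boxes span the quartiles with the median as a line, whiskers reach the last gene within 1.5 box lengths and genes beyond are not drawn. Chromosome 4 has its box below 0 with a median of −0.40, and chromosome 13 has the highest median, 0.14.

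The largest single differences lay outside both regions. LOC100507412, a gene with no position in the annotation used here, was at 6.96, 6.46 and 6.88 in A30 arrays, against 9.05, 8.93 and 9.10 in B21 arrays (−2.26 ± 0.15, limma adjusted p = 1.96e-07). CPA4, a secreted carboxypeptidase gene on chromosome 7, was at 6.53, 6.69 and 6.85 in A30 arrays, against 8.24, 8.84 and 8.63 in B21 arrays (−1.88 ± 0.26). The wild-type mean for CPA4 was 5.93, so both clones were above it, B21 by more. PLXDC2, a plexin domain membrane protein gene on chromosome 10, was at 5.10, 4.68 and 4.82 in A30 arrays, against 6.79, 6.34 and 6.52 in B21 arrays, and the wild-type mean of 7.72 was above both. ZNF804A, a zinc finger gene on chromosome 2, was at 3.94, 4.0 and 4.21 in A30 arrays, against 5.55, 5.62 and 5.53 in B21 arrays. Its A30 values lie below 5.6, the level of the filter, and only 1 B21 array lies above it. The B21 values are close to the wild-type mean of 5.71, so this gene is dim in both clones.

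Further falls in A30 included TCEAL7 on chromosome X (−1.35 ± 0.21), the antisense gene VPS9D1-AS1 on chromosome 16 (−1.25 ± 0.17) and SOX11, a factor of neural progenitors on chromosome 2 (−1.03 ± 0.18). For SOX11 no A30 array and only 1 B21 array was above 5.6. Whether the VPS9D1-AS1 probe set also reads the overlapping sense gene was not analysed here. LUM, the collagen-binding proteoglycan lumican, was at 5.10, 4.67 and 4.94 in A30 arrays, against 5.93, 5.84 and 6.07 in B21 arrays (−1.04 ± 0.13, limma adjusted p = 9.22e-05). The esterase gene IAH1 on chromosome 2 was at 4.92, 4.63 and 4.80 in A30 arrays, against 5.93, 5.96 and 6.20 in B21 arrays. IAH1 exceeded 5.6 in the 3 B21 arrays and in no array of any other line, and LUM in the 3 B21 arrays and 1 array of N4, so both were tested because B21 was high, their A30 values lie at the dim end and their calls support nothing further. In each of these genes no A30 array reached the lowest B21 array, which their selection required. The 12 largest falls passed with any 1 array left out and after neighbour centring, which for IAH1 and LUM adds no support. For LOC100507412 the centred fit is no further test, since a gene without a position was not centred.

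The rises were smaller. SCARNA9L, a small Cajal body RNA gene on chromosome X, was at 9.60, 9.57 and 9.71 in A30 arrays, against 8.67, 8.45 and 8.37 in B21 arrays (1.13 ± 0.15, limma adjusted p = 0.000124). It has a near copy, SCARNA9, and probes may read both. ARRDC3, an arrestin-related adaptor for receptor turnover, was at 8.08, 7.80 and 8.04 in A30 arrays, against 7.05, 6.87 and 7.09 in B21 arrays, and the wild-type mean of 7.02 was near B21. SYT11, a synaptotagmin gene, was at 7.22, 7.19 and 7.13 in A30 arrays, against 6.48, 6.12 and 6.18 in B21 arrays, and here the wild-type mean of 7.35 was near A30. ZNF711, a zinc finger gene on chromosome X, differed by 0.85 ± 0.24 (limma adjusted p = 0.0308) and lost its call when any 1 of 4 arrays was left out (highest adjusted p = 0.139). MAP7D2, which encodes a microtubule-associated protein, differed by 0.75 ± 0.20 and lost its call when any 1 of 5 was left out (highest adjusted p = 0.0777). EBF2, a transcription factor of brown fat and neural development, was at 8.23, 8.15 and 8.20 in A30 arrays, against 7.33, 7.42 and 7.47 in B21 arrays. GLYATL2 (0.72) lost its call without B21 replicate 2 (limma adjusted p = 0.0512). CREBRF (0.71), a regulator of the CREB3 stress factor, LINC00673 (0.71), GFRA2 (0.70), a receptor for the growth factor neurturin, OLFM1 (0.68) and DPYSL4 (0.65), both with known roles in neurons, were called with any 1 array left out. Under a test against a minimum change of 1.5-fold, 3 genes passed, namely LOC100507412 (limma treat adjusted p = 1.01e-05), ZNF804A (0.00147) and ENPEP (0.0246).

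**Figure D5:**
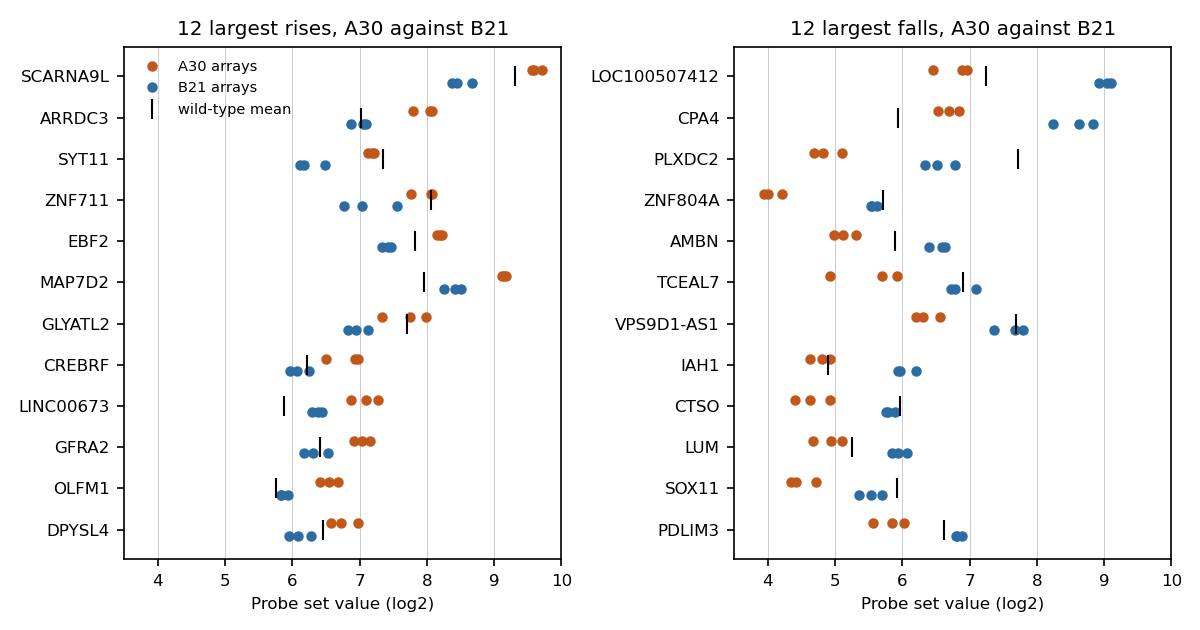
Probe set values (log2, x axis) of the 12 largest rises (left) and the 12 largest falls (right) outside both regions, with A30 arrays in orange, B21 arrays in blue and the wild-type mean as a black bar. The genes were picked among those whose A30 and B21 arrays do not overlap. The wild-type mean lies near one clone for some genes and between or beyond both for others.

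Of 11 CIC target genes tested, 0 were higher and 2 lower in A30, beside 2.65% higher and 7.14% lower over all genes, and their median difference was −0.02, beside 0.00 over all genes. The 2 were the cyclin genes CCND2, at 8.60, 8.55 and 8.51 in A30 arrays, against 8.81, 8.97 and 8.88 in B21 arrays (−0.33 ± 0.07, limma adjusted p = 0.00779), and CCND1, at 8.49, 8.39 and 8.37 in A30 arrays, against 8.60, 8.85 and 8.94 in B21 arrays (−0.38 ± 0.09, 0.0139). Both encode D-type cyclins, which drive cells through G1. CCND1 lost its call without B21 replicate 2 or 3 (highest adjusted p = 0.0811). The PEA3 factors ETV4 and ETV5 averaged 6.93 ± 0.15 and 6.04 ± 0.06 in A30, against 6.89 ± 0.40 and 6.06 ± 0.24 in B21 (SD, n = 3 arrays each), with limma adjusted p of 0.953 and 0.974. ETV1 was at 5.92, 5.72 and 6.15 in A30 arrays, against 6.20, 6.37 and 6.45 in B21 arrays (−0.41 ± 0.20, limma adjusted p = 0.232). SPRY4 was at 6.11, 6.17 and 6.10 in A30 arrays, against 5.39, 6.05 and 5.95 in B21 arrays (limma adjusted p = 0.527), where 1 B21 array lay well below the others. Of 8 tested genes for ATXN1, ATXN1L, CIC and their partners, 1 was called, RBPJ, the DNA-binding factor of Notch signalling (−0.28 ± 0.08). RBPJ lies on chromosome 4, relative to its neighbours the difference was 0.05, and the call was lost when any 1 of 5 arrays was left out (highest adjusted p = 0.129).

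Among early-response, adhesion and matrix genes a few members were called, beside 9.8% called over all genes (2.65% higher and 7.14% lower). MYC, the proliferation factor, was the 1 gene called among 13 early-response genes, at 6.55, 6.59 and 6.75 in A30 arrays, against 7.72, 7.56 and 7.59 in B21 arrays (−0.99 ± 0.22, limma adjusted p = 0.00788). Both clones were below the wild-type mean of 8.33 for MYC. Of 11 tested genes responsive to YAP and SRF, the factors that read cell shape and tension, 2 were lower and 0 higher, with a median of −0.22. These were CRIM1 (−0.65 ± 0.14, limma adjusted p = 0.00548) and the calponin gene CNN2 (−0.73 ± 0.20, 0.0315). CNN2 lost its call when any 1 of 5 arrays was left out (highest adjusted p = 0.107). ANKRD1 and CCN2, classical YAP targets, were lower in every A30 array than in every B21 array, but their differences of −0.89 ± 0.52 and −0.72 ± 0.50 did not pass (limma adjusted p = 0.329 and 0.421). Arrays lay apart in this direction at 16.4% of all genes tested. Of 14 keratin and junction genes, the tight junction gene CLDN1 was called, at 6.61, 6.67 and 6.19 in A30 arrays, against 7.18, 7.43 and 7.34 in B21 arrays (−0.83 ± 0.17). Of 14 matrix genes, LUM and the tenascin gene TNC (−0.35 ± 0.10) were lower and 0 were higher. LUM was tested because B21 was high, as described above. TNC lost its call when any 1 of 4 arrays was left out (highest adjusted p = 0.151).

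In the Notch pathway, through which neighbouring cells set each other's fate, 2 of 14 genes were higher and 0 lower, with a median of 0.08. Over all genes 2.65% were higher and 7.14% lower (9.8% called), the background for each count of calls in this paragraph. HEY1, a repressor induced by Notch, was at 7.63, 8.05 and 8.0 in A30 arrays, against 7.27, 7.19 and 7.27 in B21 arrays (0.65 ± 0.13, limma adjusted p = 0.00307). The ligand DLL1 was at 6.75, 6.74 and 6.93 in A30 arrays, against 6.35, 6.45 and 6.43 in B21 arrays (0.40 ± 0.09, 0.00662). Both kept their calls with any 1 array left out and after neighbour centring, whereas the receptor NOTCH1 (−0.25, limma adjusted p = 0.083) and the target HES4 (−0.21, 0.115) had values in the other direction. Of 7 cytokine genes, the chemokine CXCL12 was higher (0.45 ± 0.11, limma adjusted p = 0.0139) but not without A30 replicate 1 or B21 replicate 2 (highest adjusted p = 0.076). CCL2, a chemokine for monocytes, was at 6.41, 6.69 and 7.13 in A30 arrays, against 5.34, 5.61 and 6.27 in B21 arrays. Its difference of 1.00 ± 0.31 missed the threshold (limma adjusted p = 0.0508) and passed with the replicate block (0.04). Of 17 BMP and Wnt genes, SFRP2 was higher, and LEF1, a Wnt effector, and SMAD1, a BMP effector, were lower. All 3 lie on chromosome 4, and LEF1 and SMAD1 differed by 0.10 and 0.22 relative to their neighbours. Both lost their calls when any 1 of 4 arrays was left out (highest adjusted p of 0.146 and 0.2). With limma 0 of 12 ephrin genes were called, with 4 at an unadjusted p under 0.05 and 3 with the replicate block. For 12 unfolded protein and stress genes these counts were 0, 1 and 0, and for 12 kidney developmental genes 0, 4 and 2.

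For genes of the cell cycle and of metabolism the background was the same 9.8% called. Of 20 S phase genes, MCM7 of the replicative helicase (0.27 ± 0.06) and CCNE2 (0.32 ± 0.09), a cyclin of the G1 to S step, were higher, and RRM2, a ribonucleotide reductase subunit (−0.28 ± 0.06), was lower. Of 18 genes of G2 and mitosis, the cyclin CCNA2, on chromosome 4 (−0.46 ± 0.12), and the kinase PLK1 (−0.26 ± 0.07) were lower. Of these, MCM7 alone kept its call with any 1 array left out, and none of the 5 remained after neighbour centring (limma adjusted p from 0.0566 for MCM7 to 0.944 for CCNA2). NDRG1, a gene induced by hypoxia, was lower (−0.73 ± 0.21), as the 1 gene called of 10 in glycolysis and hypoxia. GDF15, a p53-responsive cytokine, was higher (0.54 ± 0.16), as the 1 called of 9 p53 targets, and IFIH1, a sensor of viral RNA, was lower (−0.52 ± 0.13), as the 1 called of 5 interferon-stimulated genes. IFIH1, like SFRP2 and GALNT13, had no A30 or B21 array above 5.6 and was tested through other lines. In oxidative phosphorylation CYC1 was higher (0.29 ± 0.08) and COX4I1 lower (−0.21 ± 0.06) of 10, in cholesterol synthesis MSMO1, on chromosome 4, was lower (−0.31 ± 0.09) of 11, and of 17 ribosomal protein genes 0 were called with limma (2 at an unadjusted p under 0.05, 0 with the replicate block). NDRG1, GDF15, IFIH1, CYC1, COX4I1 and MSMO1 each lost the call without some single array, with highest adjusted p of 0.121, 0.196, 0.0617, 0.138, 0.13 and 0.154. Among neuronal genes GALNT13, a glycosyltransferase gene, was lower as the 1 called of 9 (−0.97 ± 0.25), and among 5 cadherin genes PCDH7, on chromosome 4, was (−0.34 ± 0.10). Both lost their calls when any 1 of 4 arrays was left out (highest adjusted p of 0.0914 and 0.159). Over all lists 29 of 270 tested members were called, 9 higher and 20 lower in A30, beside 9.8% over all genes, and 9 of the 29 kept the call with any 1 array left out. On chromosome 4, 7 of 13 tested list members were called, and 1 of the 7, SFRP2, remained after neighbour centring. Elsewhere 10 of 22 remained, and some that did not kept nearly the whole difference, as CNN2 (−0.71, limma adjusted p = 0.0653), GALNT13 (−0.93, 0.0504) and GDF15 (0.54, 0.0735).

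MicroRNAs are short RNAs that guide silencing complexes to messages matching their seed, bases 2 to 8 of the mature strand. Of 295 microRNA genes tested, 3 were called, 1 higher and 2 lower in A30, beside 9.8% over all genes. The mature sequences of these 3 are shown with their seeds in capitals, from RefSeq on GRCh38.p14, together with let-7a, which has the seed of miR-4458. The loci are chr4:24520252-24520275 on the minus strand for miR-573, chr10:129843349-129843364 on the minus strand for miR-4297, chr5:8460933-8460951 on the plus strand for miR-4458 and chr9:94175962-94175983 on the plus strand for let-7a.
hsa-miR-573: cUGAAGUGauguguaacugaucag
hsa-miR-4297: uGCCUUCCugucugug
hsa-miR-4458: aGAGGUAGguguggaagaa
hsa-let-7a-5p: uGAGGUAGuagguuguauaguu

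MIR573, on chromosome 4 before the region, was at 6.22, 5.98 and 6.56 in A30 arrays, against 7.04, 6.65 and 7.06 in B21 arrays (−0.66 ± 0.17, limma adjusted p = 0.02). Relative to its neighbours it differed by −0.33 (limma adjusted p = 0.344). MIR4297 was at 5.57, 5.92 and 6.05 in A30 arrays, against 6.69, 6.28 and 6.23 in B21 arrays (−0.55 ± 0.17, limma adjusted p = 0.0426). MIR4458 was at 6.86, 6.72 and 6.93 in A30 arrays, against 6.16, 6.55 and 6.60 in B21 arrays (0.40 ± 0.11, limma adjusted p = 0.0275). The arrays of the clones did not overlap for any of the 3, as held for 27.6% of all genes tested. Each lost its call when some single array was left out, with highest adjusted p of 0.0965 for MIR573, 0.192 for MIR4297 and 0.13 for MIR4458. The deposited values do not separate mature microRNAs from their longer precursors.

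The chromosome 13 region holds the MIR15A and MIR16-1 genes, whose products share a seed, shown in capitals, and are known to act on cell cycle messages. They lie at chr13:50049167-50049188 and chr13:50049027-50049048 on the minus strand.
hsa-miR-15a-5p: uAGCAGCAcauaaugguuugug
hsa-miR-16-5p: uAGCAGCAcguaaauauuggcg

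Neither passed. MIR15A was at 5.75, 5.67 and 5.67 in A30 arrays, against 5.78, 5.57 and 5.56 in B21 arrays (0.06 ± 0.28, limma adjusted p = 0.929). MIR16-1 was at 5.28, 5.46 and 5.40 in A30 arrays, against 5.21, 5.29 and 5.72 in B21 arrays (−0.03 ± 0.15, limma adjusted p = 0.942). Both sit near or below the filter level of 5.6, and the standard errors are at least as large as the region's median of 0.15. MIR17HG, host of the miR-17-92 cluster in the same region, was at 6.32, 5.65 and 6.12 in A30 arrays, against 6.09, 5.83 and 6.07 in B21 arrays (0.03 ± 0.17, limma adjusted p = 0.937).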

How the data were processed

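RNA of 18 cultures was measured on Affymetrix arrays. The authors made the deposited log2 values with Affymetrix Expression Console, per the submitters' processing notes, without a stated version or settings. Values ran from 0.57 to 14.84 and were used as deposited, with a pseudocount of 0. Of 53617 probe sets, 16098 had 1 gene symbol, 0 several and 37519 none, covering 14884 genes. Symbols came from the platform's annotation and positions from RefSeq genes of GRCh38.p14, used for order and regions only. Several probe sets carried the same symbol for 779 genes, and the brightest of them on average over the 18 arrays was taken. Genes with at least 3 arrays above 5.6, the 40th percentile of named probe sets, were tested.

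All arrays entered 1 fit with a mean per line (limma 3.58.1, R 4.3.3), and A30 minus B21 was tested two-sided with Benjamini-Hochberg adjustment. Errors of differences are limma standard errors. An exact permutation test of 3 arrays against 3 cannot go below 0.1. Same-numbered A30 and B21 arrays deviated together from their line means (r = 0.206, 0.185 and 0.186 for replicates 1, 2 and 3, against −0.184 to −0.0227 for other pairs), so the replicate number was taken as a pairing. Deviations within a line sum to 0, so the values of the other pairs are not independent of these. The labels do not say that same-numbered cultures were handled together. Median SD between arrays was 0.11 in A30 and 0.09 in B21, and precision is limited by the few arrays.

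The genes named are the targets, the 12 largest non-overlapping called rises and falls outside the regions, up to 8 called genes with and 4 against each region's direction, 3 genes on each side of each limit, up to 4 list members of smallest p and called microRNA genes. Some list members are named beyond this rule (ETV4, ETV5, ANKRD1, CCN2), as are microRNA genes of the chromosome 13 region and the ends of stretches, all after their values were seen. The members, regions and 28 lists were chosen with earlier results of these data known. The fit was tested on simulated data. Alternatives covered the filter, scaling, probe set, variance model, block, array left out, neighbour centring and thresholds. A further 2, replicates 2 and 3 only and no A10, were added after seeing the data. Tables and figures used Python 3.11.15, pandas 2.3.3, numpy 2.4.6 and matplotlib 3.10.9.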

Additional observations from a re-analysis of the deposited data

Results flagged for a closer look

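For 7 of the genes named by the rule in the processing summary, A30 and B21 lay on opposite sides of the wild-type mean, each past limma's adjusted threshold. The test of that contrast is the difference between the clones. All 7 were named because that difference was called, so its passing adds no support. The comparisons with wild type share the same 9 wild-type arrays. EBF2 was 0.36 above the wild-type mean in A30 and −0.43 from it in B21, a difference of 0.79. DPYSL4 was at 0.30 in A30 and −0.35 in B21 (0.65), and MBNL2, in the chromosome 13 region, at 0.21 in A30 and −0.32 in B21 (0.53). LOC100507412 was at −0.47 in A30 and 1.79 in B21 (−2.26). AMBN was at −0.75 in A30 and 0.65 in B21 (−1.40), and BMP2K at −0.59 in A30 and 0.26 in B21 (−0.85), both on chromosome 4. LUM was at −0.34 in A30 and 0.70 in B21 (−1.04). LUM was above the filter level in B21 and 1 array of N4 only. The wild-type lines themselves were spread. AMBN averaged 5.14 in A30 and 6.54 in B21, with 6.18 (parental), 6.55 (N4) and 4.93 (N8) in wild type. DPYSL4 averaged 6.76 in A30 and 6.11 in B21, with 6.29, 6.29 and 6.80 in those 3 lines, so N8 was above A30. LOC100507412 averaged 6.77 in A30 and 9.03 in B21, with 7.16, 6.79 and 7.78, and LUM 4.90 in A30 and 5.95 in B21, with 5.23, 5.54 and 4.97. EBF2 averaged 8.19 in A30 and 7.41 in B21, with 7.94, 7.99 and 7.56, and MBNL2 8.34 in A30 and 7.81 in B21, with 8.22, 8.19 and 7.97. BMP2K averaged 7.59 in A30 and 8.44 in B21, with 8.20, 8.15 and 8.19.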

How the results depend on the processing

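The count of 949 called genes (820 outside both regions) was 592 (494) with the 6 arrays of A30 and B21 alone, 1443 (1292) with the replicate block, 1421 (1270) with replicate 1 against replicates 2 and 3 as a term, 350 (332) with neighbour centring, 3 (2) against a minimum change of 1.5-fold and 429 (337) at an adjusted p under 0.01. Leaving out 1 array of A30 or B21 gave 569 to 881 (467 to 758), and leaving out A10 replicate 1, whose line shares the estimate of spread, gave 1135 (1002). The median of the chromosome 4 region was −0.30 without the filter, −0.03 with neighbour centring and −0.52 to −0.42 with 1 array left out. That of the chromosome 13 region was 0.09, 0.03 and 0.12 to 0.19. The replicate block moved no median, ended no call of a named gene and added 20, CCL2 among them. Neighbour centring turned the sign of MTHFD2L (0.11), THAP6 (0.05), SMAD1 (0.22), TMEM184C (0.07), RBPJ (0.05), LEF1 (0.10) and MSMO1 (0.12), all on chromosome 4, by its construction. The cause of the other changes was not tested, apart from fewer arrays or a stricter threshold where the alternative sets these. Of 81 named genes called, 50 kept the call with any 1 array left out, 48 kept it in every alternative other than neighbour centring and the minimum change, and 3 in every one. Among the 3 was LOC100507412, which has no position, so centring left it unchanged. Genes near or below 5.6 have little signal over background, which limits what can be seen of them.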

Other observations

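Several called genes outside the lists belong to other functions and were picked after their values were seen, from genes at which A30 and B21 each passed limma's threshold on opposite sides of the wild-type mean. ERAP2, an aminopeptidase that trims peptides for MHC class I, was at 5.89, 5.85 and 5.90 in A30 arrays, against 6.73, 6.47 and 6.94 in B21 arrays (−0.83 ± 0.11, limma adjusted p = 0.000124). The wild-type lines averaged 5.88 (parental), 6.04 (N4) and 7.13 (N8) for ERAP2. A30 was thus level with the parental cells, and N8 was above B21. CTSC, a lysosomal protease that activates granule enzymes, was at 8.72, 8.63 and 8.71 in A30 arrays, against 9.21, 9.35 and 9.34 in B21 arrays (−0.61 ± 0.10, limma adjusted p = 0.000798). HAND1, a factor of heart and trophoblast development, was at 7.78, 7.67 and 7.70 in A30 arrays, against 7.35, 7.06 and 7.39 in B21 arrays (0.45 ± 0.09, limma adjusted p = 0.00522). HAND1 lies on chromosome 5 and differed by 0.24 relative to its neighbours (limma adjusted p = 0.177), while ERAP2 (−0.96) and CTSC (−0.63) kept their calls there. On chromosome 4, HTT, which encodes huntingtin, was at 8.54, 8.59 and 8.68 in A30 arrays, against 9.12, 9.04 and 9.10 in B21 arrays (−0.48 ± 0.07), and the circadian regulator CLOCK at 8.79, 8.85 and 8.89 in A30 arrays, against 9.35, 9.42 and 9.32 in B21 arrays (−0.52 ± 0.06). Relative to neighbours these were −0.27 (limma adjusted p = 0.0335) and −0.16 (limma adjusted p = 0.185). For CTSC, HAND1, HTT and CLOCK, unlike ERAP2, the means of both clones lay outside those of the wild-type lines. For CTSC the margin was narrow, with 8.69 in A30 and 8.74 in N8. For all 5 genes the arrays of the clones did not overlap, as held for 27.6% of all genes tested.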
